A study of Mus musculus with 8 samples.

Results

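The Mirg cluster, also called the miR-379 to miR-410 cluster, is a long tandem array of miRNA hairpins in the imprinted Dlk1-Dio3 region of mouse chromosome 12. Its members were taken by name, as every mature miRNA whose number belongs to the array (any letter, copy or arm), which gave 78 of the 1915 miRNAs listed in the small RNA of mouse embryonic stem cells. Of these 78, 71 had a count in at least 1 of 8 libraries and 7 had none. The 55 that passed edgeR's filter on low counts were tested, and the other 16 with a count were too sparse to test.

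In RefSeq annotation on GRCm38, 39 hairpins of the cluster lie on chromosome 12 between 109709060 and 109747960, a span of 38.9 kb. The plus strand carries 38 of them, and miR-299b lies on the minus strand opposite miR-299a. The noncoding gene Mirg (GENCODE vM21, chr12:109729764-109749460, plus strand) overlaps 14 of the hairpins, 9 in an exon and 5 in an intron. One member by number, miR-496b, maps to chromosome 19 and had no count.

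A miRNA hairpin is cut from a longer transcript and yields a 5p and a 3p strand, and the strand that is loaded into an Argonaute protein guides it to target RNAs through its seed, bases 2 to 8. Strands that are not held by an Argonaute are usually short-lived. The hairpins of this array are transcribed from the maternally inherited chromosome, together with other noncoding RNAs of the Dlk1-Dio3 region, and the region is known in embryonic stem cells for an imprint that can be lost in culture.

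The mature sequences on which the results turn are given first, 5′ to 3′, from RefSeq (GRCm38.p6), with the seed in capitals. RefSeq sequences were matched for 74 of the 78 members. The first set holds the 6 most abundant members.
miR-411-5p: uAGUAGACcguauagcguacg
miR-541-5p: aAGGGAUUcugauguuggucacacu
miR-410-3p: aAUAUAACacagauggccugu
miR-381-3p: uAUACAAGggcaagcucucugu
miR-409-3p: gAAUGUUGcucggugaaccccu
miR-300-3p: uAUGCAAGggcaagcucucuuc
The second set holds pairs with nearly the same sequence, shown because their levels are compared below, and the 2 arms of miR-299a with those of its antisense partner.
miR-376a-3p: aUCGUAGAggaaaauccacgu
miR-376b-3p: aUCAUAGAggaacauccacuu
miR-379-3p: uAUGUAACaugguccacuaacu
miR-411-3p: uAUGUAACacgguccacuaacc
miR-299a-3p: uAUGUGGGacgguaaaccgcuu
miR-299b-3p: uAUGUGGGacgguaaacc
miR-299a-5p: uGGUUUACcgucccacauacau
miR-299b-5p: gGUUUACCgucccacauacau
The third set holds both arms of 2 hairpins whose arm balance changed and 2 members that were scarce in the knockout and uninduced libraries.
miR-666-5p: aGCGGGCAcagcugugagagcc
miR-666-3p: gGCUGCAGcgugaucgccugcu
miR-134-5p: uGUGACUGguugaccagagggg
miR-134-3p: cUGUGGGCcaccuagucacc
miR-1197-3p: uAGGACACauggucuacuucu
miR-412-5p: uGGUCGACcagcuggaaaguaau
All 21 bases of miR-299b-5p lie inside miR-299a-5p, and all 18 of miR-299b-3p inside miR-299a-3p, so reads of the 2 hairpins cannot be told apart by sequence over that length and the counts of miR-299b are uncertain.

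The 8 libraries form 4 groups of 2, all of 129/Ola embryonic stem cells grown in 15% serum with LIF at 100 U/mL. The wild type group is E14 cells (libraries A and B). The Ago2 knockout group is 2 lines, 1 and 2, without the Argonaute protein AGO2, each sequenced once. The remaining 2 groups are 1 cell line, an Ago2 knockout carrying inducible ectopic AGO1 (another Argonaute protein) that the labels name after knockout line 1, kept in puromycin at 2 µg/mL and sampled as A and B, once uninduced and once in doxycycline at 1 µg/mL. The controls for induction therefore also lack AGO2, no wild type library received doxycycline, and the effect of the drug itself cannot be told apart from that of the transgene. The table holds miRNAs only, so the transcripts of Ago2 and AGO1 were not analysed here. Nothing in the labels says that A and B came from separate cultures, and p-values measure only the spread between these samples, which may be technical.

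Total miRNA counts ranged from 163467 in knockout 2 to 1326638 in the induced line A, and a count of 3 corresponds to between 2.57 and 15.1 CPM (counts scaled to a common total, with totals adjusted by edgeR's TMM factors). Pluripotent cell miRNAs of the miR-290 and miR-302 families, which check the labelled cell type, took 25.5 to 30.8% of counts in every library. Blood miRNAs took 0.164 to 0.188% in wild type, 0.651 to 0.790% in knockout, 0.649 to 0.716% in the uninduced line and 0.33 to 0.355% in the induced line. Fibroblast and smooth muscle miRNAs took 0.287 to 0.378%, 0.0565 to 0.0569%, 0.0385 to 0.0498% and 0.173 to 0.185% in the same order. Neural miRNAs took 0.161 to 0.180%, 0.126 to 0.139%, 0.102 to 0.139% and 0.0957 to 0.111% in the same order, highest in wild type. Muscle miRNAs had 0 to 7 counts per library. Summed over each list, the fibroblast and smooth muscle share moved with the groups in the direction most cluster members did. The blood share moved in that of the members that rose. Of the fibroblast and smooth muscle list 7 of 11 miRNAs had a count, nearly all of it from miR-143-3p (2648 and 4101 counts in the wild type libraries, 141 and 69 in the knockouts), and miR-214 was at 0 throughout. Relative to library totals, both arms of miR-145a were instead higher in the knockouts. miR-145a-5p had 17 and 29 counts in the wild type libraries and 17 and 9 in the much shallower knockouts. The miR-199 strands were scarce and mixed, so the move of this list was that of miR-143-3p. Of the blood list 7 of 9 had a count, led by miR-150-5p and miR-142a-5p, with miR-223 at 0 throughout. The part of these cell types in the results below was not tested, and in such bulk samples fewer cells of a type and less RNA per cell cannot be told apart.

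The cluster as a whole kept a similar share of the miRNA pool in wild type and knockout cells while its make-up changed. Its members took 9.80% ± 0.099 (SD, n = 2) of counts in wild type, 9.0% ± 1.18 in knockout, 10.7% ± 0.633 in the uninduced AGO1 line and 12.2% ± 0.142 in the induced line. With 2 libraries a group, an exact permutation test cannot go below 0.33, so these shares are given without a test. Knockout 1 had 9.83% and knockout 2 had 8.17%, the first within and the second below the wild type values of 9.73 and 9.87%. The induced libraries, at 12.1 and 12.3%, lay above all the others.

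Within the cluster, miR-411-5p took 18.3 and 18.7% of cluster counts in wild type but 37.7 and 39.8% in knockout, 42.6 and 38.4% in the uninduced line and 25 and 22.4% in the induced line. The counterpart was miR-410-3p, with 18.5 and 18.0% in wild type, 3.91 and 3.79% in knockout, 3.56 and 4.28% in the uninduced line and 13.5 and 15.7% in the induced line. The leading member in wild type was miR-541-5p, at 30.6 and 31.1% of cluster counts, against 21 and 17.2% in knockout. Knockout cells thus held a cluster dominated by miR-411-5p, and induced cells one led again by miR-541-5p (30.9 and 29.1%). miR-381-3p took 6.36 and 7.05% in wild type, 18.7 and 19.9% in knockout and 6.23 and 6.61% in the induced line.

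**Figure D1:**
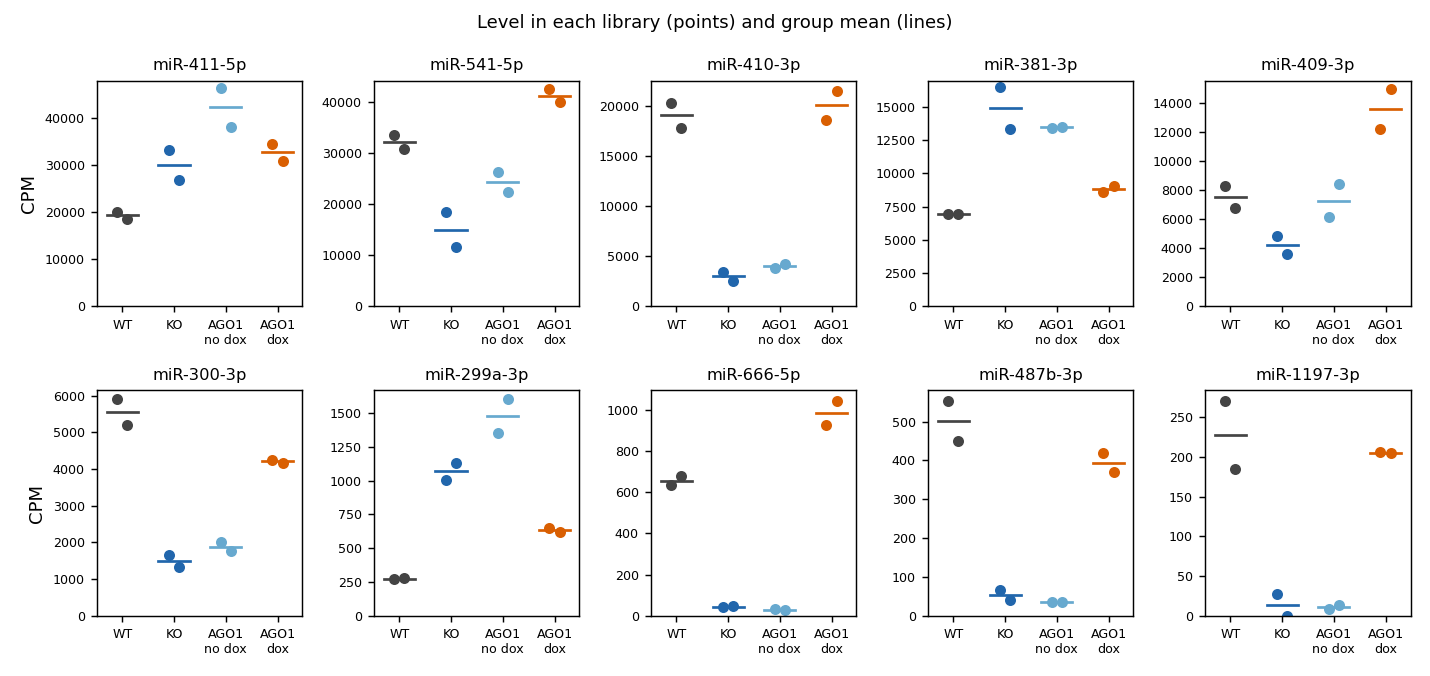
Level of 10 cluster members in CPM (y axis from 0, each panel with its own scale) in the 4 groups (x axis). Points are libraries and lines are group means (n = 2); miR-410-3p, miR-300-3p, miR-666-5p, miR-487b-3p and miR-1197-3p are low in both knockout and both uninduced libraries, whereas miR-411-5p, miR-381-3p and miR-299a-3p are high there.

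Loss of AGO2 was examined first, by comparing the 2 knockout lines with wild type. Of the 55 tested members 31 fell and 8 rose, and 16 did not pass the test (edgeR quasi-likelihood F test, Benjamini-Hochberg adjusted p under 0.05 over all 475 tested miRNAs). Over all tested miRNAs 57.7% were called, 32.2% lower and 25.5% higher, so the share of members that fell was above the background and the share that rose below it. The median log2 fold change was -1.39 for the cluster and -0.12 over all tested miRNAs. With the 3 members that had 0 counts in a group set at their bound, the cluster's median was -1.36. Without TMM scaling the median of all tested miRNAs moved by 0.29 (log2) and the members split into 11 higher and 24 lower. No library left out moved the number of called members, 39, by more than 1.5 times (range 30 to 37).

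Among the abundant members the deepest fall was that of miR-410-3p (chr12:109743715-109743795, in an exon of Mirg), the strand for which the end of the array is named. Its level was 20339 and 17820 CPM in wild type A and B, against 3443 and 2545 CPM in knockout 1 and 2. The groups did not overlap, and the fall was 6.37-fold (log2 fold change -2.67 ± 0.20 SE, edgeR adjusted p = 3.68e-06). miR-541-5p (chr12:109742409-109742498, in an intron of Mirg) fell from 33538 and 30797 CPM to 18463 and 11565 CPM, 2.14-fold (log2 fold change -1.10 ± 0.21, edgeR adjusted p = 0.00171). miR-300-3p (chr12:109724313-109724391) fell from 5915 and 5205 CPM to 1669 and 1338 CPM (log2 fold change -1.88 ± 0.19, edgeR adjusted p = 3.05e-05). These 3 abundant strands were lower in both knockout lines than in either wild type library. miR-409-3p had 8322 and 6780 CPM in wild type and 4882 and 3597 CPM in knockout, a smaller fall (log2 fold change -0.83 ± 0.22, edgeR adjusted p = 0.0104) that did not hold without wild type A (adjusted p = 0.172).

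The largest falls came from less abundant members. miR-412-5p (chr12:109743289-109743368) had 46 and 52 counts in wild type and 0 in both knockout lines, which puts it at least 10.02-fold lower, with 3 counts over the group as the floor. miR-666-5p, located by its mature arms at chr12:109717103-109717161, had 634 and 680 CPM in wild type and 44.9 and 45.3 CPM in knockout, 14.5-fold lower (log2 fold change -3.86 ± 0.25, edgeR adjusted p = 1.46e-06). The 2 knockout lines agreed closely for this strand. miR-1197-3p (chr12:109712317-109712436) had 271 and 184 CPM in wild type, 27.4 CPM in knockout 1 and no count in knockout 2 (log2 fold change -3.70 ± 0.60, edgeR adjusted p = 0.000745). miR-668-3p behaved alike, with 112 and 94.4 CPM in wild type, 17.5 CPM in knockout 1 and none in knockout 2 (log2 fold change -3.17 ± 0.56, edgeR adjusted p = 0.00122). miR-487b-3p had 554 and 449 CPM in wild type and 67.4 and 40.2 CPM in knockout (log2 fold change -3.15 ± 0.30, edgeR adjusted p = 2.08e-05). In each of these 5 members every knockout library lay below every wild type library, as the rule that named them required.

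A few lower members rest on few reads. The knockout to wild type ratio of miR-3072-3p was 0.0593, from 1 and 55 counts, with a 95% counting interval of 0.00147 to 0.344, and that of miR-539-3p was 0.217, from 3 and 45 counts (0.0432 to 0.677). The miR-539-3p call held without knockout 1 and failed in each of the other 7 fits that left out 1 library, with edgeR adjusted p from 0.0547 to 0.217. miR-380-5p had 0 counts in knockout and 21 in wild type, at least 2.15-fold lower. Its call failed without knockout 1 (adjusted p = 0.151), knockout 2 (0.0513), induced A (0.0696) or induced B (0.0800), and without wild type B it had too few counts to test. Its partner strand miR-380-3p was far better covered and fell from 2029 and 1602 CPM to 287 and 206.3 CPM (log2 fold change -2.86 ± 0.24, edgeR adjusted p = 7.36e-06).

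The 8 members that rose included the most abundant strand in knockout cells. miR-411-5p (chr12:109710175-109710256) had 20042 and 18503 CPM in wild type and 33240 and 26737 CPM in knockout, 1.56-fold higher (log2 fold change 0.64 ± 0.17, edgeR adjusted p = 0.00903), and lost its call without wild type B (adjusted p = 0.0678). miR-381-3p (chr12:109726822-109726896) went from 6972 and 6982 CPM to 16480 and 13336 CPM (log2 fold change 1.10 ± 0.16, edgeR adjusted p = 0.000361). miR-299a-3p (chr12:109710638-109710700) went from 271 and 280 CPM to 1008 and 1132 CPM, 3.88-fold higher (log2 fold change 1.96 ± 0.19, edgeR adjusted p = 2.64e-05). For each of the 3 the knockout libraries lay above both wild type libraries, which for miR-299a-3p the rule that named it required.

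Scarce strands also rose. miR-134-3p, the scarce partner of the neuronal miRNA miR-134-5p, had 4.75 and 4.50 CPM in wild type and 29.9 and 35.2 CPM in knockout (log2 fold change 2.75 ± 0.65, edgeR adjusted p = 0.00569), whereas miR-134-5p had a log2 fold change of -0.04 and no call. miR-494-5p had 14.2 and 10.8 CPM in wild type and 37.4 and 35.2 CPM in knockout (log2 fold change 1.55 ± 0.46, edgeR adjusted p = 0.0159). The call failed without wild type B (adjusted p = 0.0825) or knockout 1 (0.112). miR-379-3p had 922 and 903 CPM in wild type and 1647 and 1373 CPM in knockout (log2 fold change 0.73 ± 0.18, edgeR adjusted p = 0.00737). The remaining 2 were miR-381-5p and miR-299b-5p. miR-381-5p had 5 counts in wild type and 8 in knockout (log2 fold change 2.29 ± 0.82, edgeR adjusted p = 0.0347), and its call failed without wild type A (adjusted p = 0.0875), wild type B (0.110), knockout 1 (0.307), induced A (0.0623) or induced B (0.0587). miR-299b-5p had 10 counts in knockout and 0 in wild type, at least 10.9-fold higher, and its reads cannot be separated from miR-299a-5p.

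**Figure D2:**
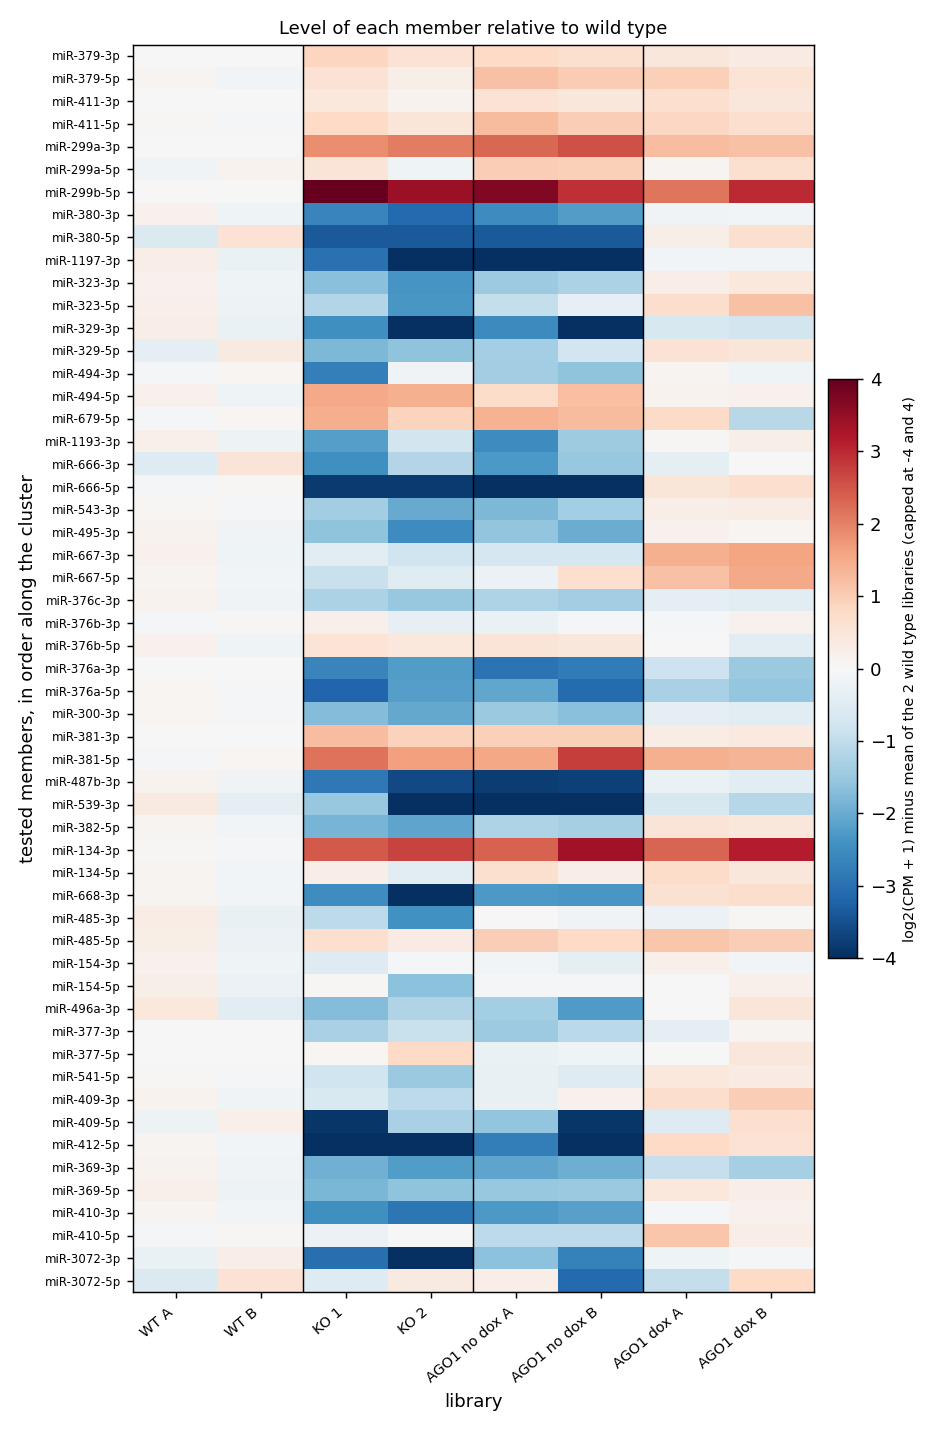
Each row is 1 of the 55 tested members, in order along the cluster, and each column 1 library; colour gives log2(CPM + 1) minus the mean of the 2 wild type libraries, capped at -4 and 4. Blue runs through most rows of the knockout and uninduced libraries and pales in the induced ones, and the miR-379, miR-411 and miR-299a rows at the top hold no such blue.

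Members that fell lay along the array from the miR-380 to the miR-3072 hairpin. Spearman's rho between distance from the first hairpin and the knockout log2 fold change was -0.20 over the 55 tested members, a description across strands that share libraries and hairpins. No tested strand of miR-379, miR-411 or miR-299a, which lie within 1.58 kb of the array's start, was called lower in the knockout, whereas miR-380-3p, from the hairpin at 2.74 kb, fell 7.27-fold. The same held further along for miR-494, miR-679, miR-376b, miR-381, miR-134 and miR-154, at 6.26 to 29.4 kb, so it was not particular to the first hairpins. These hairpins were picked out after their values were seen.

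More 3p than 5p strands fell. Of 30 tested 3p members, 22 fell and 4 rose, with a median log2 fold change of -1.64, and of 25 tested 5p members 9 fell and 4 rose, with a median of -0.33. Outside the cluster 56 of 187 3p strands and 63 of 194 5p strands fell, with medians of -0.11 and -0.13. The difference between arms was described by these counts only and was not tested. Length and GC content of the mature strand had rank correlations of -0.13 and 0.06 with the knockout change over the 51 tested members with a sequence.

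Nearly identical strands moved apart. miR-300-3p and miR-381-3p differ at 3 positions, G4A, U21G and C22U from the first to the second, counted from the 5′ end, and of these only position 4 is in the seed. In the knockout miR-300-3p fell 3.69-fold while miR-381-3p rose 2.14-fold. miR-376a-3p and miR-376b-3p also differ at 3 positions (G4A, A13C and G20U). miR-376a-3p had 99.7 and 98.0 CPM in wild type and 15.0 and 20.1 CPM in knockout, which is lower by a log2 change of -2.54 ± 0.44 (edgeR adjusted p = 0.00102). miR-376b-3p had 1168 and 1266 CPM in wild type and 1395 and 971 CPM in knockout, with overlapping groups, a log2 fold change at -0.04 ± 0.21 and no call (edgeR adjusted p = 0.888). By contrast, miR-379-3p and miR-411-3p, which share the seed AUGUAAC and differ at 2 positions (U10C and U22C), had log2 fold changes of 0.73 and 0.28, the first called and the second not (edgeR adjusted p = 0.221). How many mismatches the counting allowed is not given in the sources used here, so reads of such pairs may be partly shared.

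**Figure D3:**
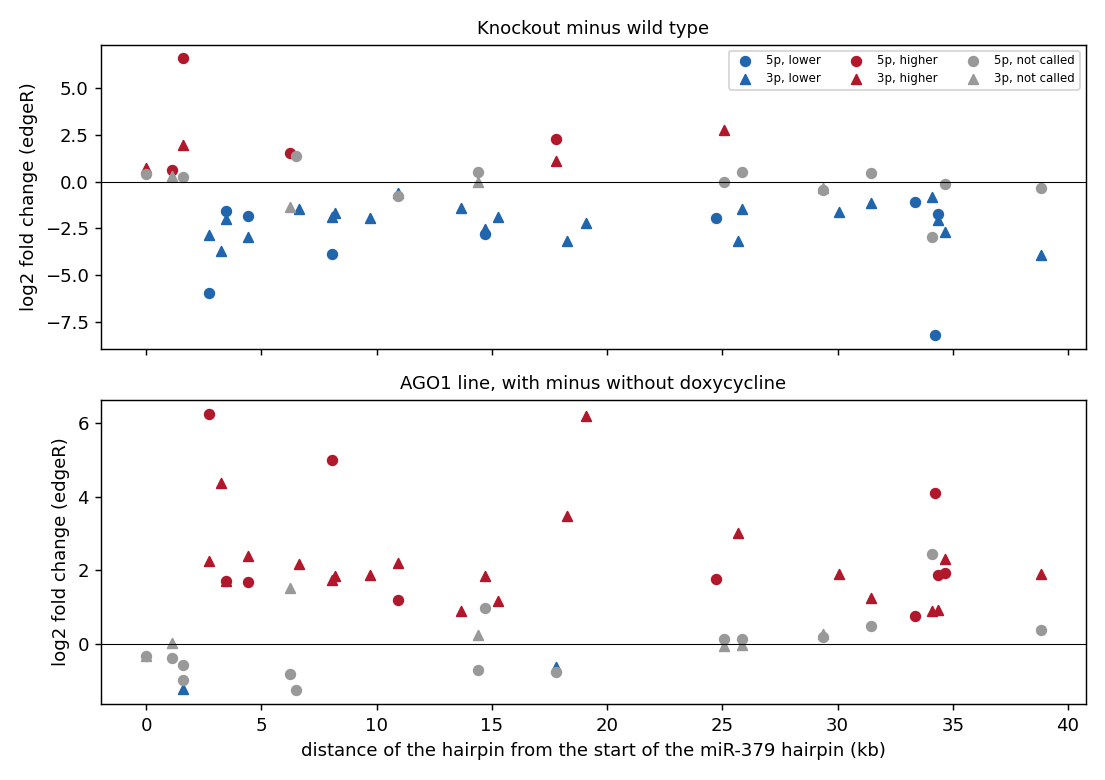
Log2 fold change (y axis, edgeR) of each tested member against the distance of its hairpin from the miR-379 hairpin in kb (x axis), for knockout minus wild type (top) and for the AGO1 line with minus without doxycycline (bottom). Circles are 5p and triangles 3p strands; blue strands are called lower, red called higher and grey not called, and blue in the top panel largely gives way to red in the bottom one, where 31 members are higher.

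The AGO1 line without doxycycline was then compared with the knockout lines. No member was called, and no miRNA in the whole table (0% of 475). At an unadjusted p under 0.05 there were 10 members and 72 miRNAs in all, and the smallest edgeR adjusted p among members was 0.188, for miR-409-3p (4882 and 3597 CPM in knockout, 6143 and 8432 CPM in the uninduced line). The median log2 fold change was 0.14 for the cluster and -0.01 over all tested miRNAs. DESeq2 called 2 members of 30 with an adjusted p, edgeR without the filter on low counts called 2, and edgeR without knockout 1 called 8, all higher. miR-541-5p, with 26420 and 22386 CPM against 18463 and 11565 CPM, lay higher in both uninduced libraries but had an adjusted p of 0.206. miR-410-3p stayed low, at 3876 and 4229 CPM. miR-666-5p was lower still, at 33.3 and 26.5 CPM, within a log2 fold change of -0.55 ± 0.30 that was not called (edgeR adjusted p = 0.498).

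In the AGO1 line, which lacks AGO2, most of the members called between the libraries with and without doxycycline were higher with it. With doxycycline, 31 of 55 members rose and 2 fell, against 21.1% higher and 7.79% lower over all tested miRNAs (28.8% called in all). The median log2 fold change was 1.19 for the cluster and 0.03 over all tested miRNAs. The number of called members, 33, was 16 without the uninduced library A and 19 without the uninduced library B. In all 8 fits that each left out 1 library, 14 of the 33 calls held.

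The 5 largest rises named by rule were of members scarce in the uninduced line, whose level is the base of the fold. Scarcity there did not by itself go with a rise. miR-679-5p, at 20.6 CPM uninduced, had a log2 fold change of -1.25, and miR-494-5p, at 25.5 CPM, one of -0.81, both without a call. miR-666-5p went from 33.3 and 26.5 CPM without doxycycline to 927 and 1044 CPM with it, 31.9-fold (log2 fold change 4.997 ± 0.26, edgeR adjusted p = 5.54e-07). miR-1197-3p went from 7.99 and 13.2 CPM to 206.1 and 205 CPM (log2 fold change 4.38 ± 0.61, edgeR adjusted p = 0.000593). miR-487b-3p went from 34.6 and 36.4 CPM to 418 and 370 CPM (log2 fold change 3.47 ± 0.30, edgeR adjusted p = 1.57e-05). The induced libraries lay above the uninduced ones in each case, as the rule that named these members required. miR-668-3p rose from 19.97 and 19.8 CPM to 158 and 167 CPM (log2 fold change 3.02 ± 0.46, edgeR adjusted p = 0.000937). miR-412-5p rose from 5 counts in A and none in B to 103 and 76 counts (log2 fold change 4.10 ± 0.58, edgeR adjusted p = 0.000903). These 5 strands are also those with the deepest falls named for the knockout, and all 5 calls held in every fit that left out 1 library. With no counts in either uninduced library, miR-380-5p (28 counts when induced) was at least 4.53-fold and miR-539-3p (27 counts) at least 4.36-fold higher. The miR-380-5p call failed without uninduced A (adjusted p = 0.166), uninduced B (0.0621) or induced B (0.101) and could not be tested without wild type B, and the miR-539-3p call failed without uninduced A (0.154), uninduced B (0.0552) or induced A (0.0670).

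Among the abundant members miR-410-3p rose most, from 3876 and 4229 CPM to 18629 and 21573 CPM, 4.96-fold (log2 fold change 2.31 ± 0.19, edgeR adjusted p = 1.30e-05). miR-300-3p rose from 1999 and 1753 CPM to 4259 and 4166 CPM (log2 fold change 1.17 ± 0.19, edgeR adjusted p = 0.00123), a call lost without the uninduced library B (adjusted p = 0.0566). miR-409-3p rose from 6143 and 8432 CPM to 12222 and 14978 CPM (log2 fold change 0.90 ± 0.22, edgeR adjusted p = 0.0142), a call lost without the uninduced library A (0.0908) or the induced library B (0.122). The groups of all 3 strands were separate. miR-541-5p rose from 26420 and 22386 CPM to 42594 and 39992 CPM (log2 fold change 0.76 ± 0.21, edgeR adjusted p = 0.0221), but the call was lost without any 1 of the 4 libraries compared (adjusted p without uninduced A 0.0561, uninduced B 0.314, induced A 0.0732, induced B 0.0745).

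The 2 members that fell on induction had both risen in the knockout. miR-299a-3p went from 1352 and 1600 CPM to 649 and 617 CPM (log2 fold change -1.22 ± 0.19, edgeR adjusted p = 0.000937), and its call held in every fit that left out 1 library. miR-381-3p went from 13426 and 13501 CPM to 8574 and 9071 CPM (log2 fold change -0.61 ± 0.16, edgeR adjusted p = 0.0176). Its call was lost without the uninduced library A (adjusted p = 0.233) or B (0.0621), or the induced library A (0.213) or B (0.112). miR-411-5p had 46368 and 37980 CPM without and 34413 and 30821 CPM with doxycycline, lower in both induced libraries but not called (log2 fold change -0.37 ± 0.17, edgeR adjusted p = 0.124).

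The knockout comparison and the induction comparison share no library, so members can be set against each other across them. Of the 31 members that fell in the knockout, 29 rose on induction (93.5%), and of the 31 that rose on induction the same 29 had fallen in the knockout (93.5%). Outside the cluster, 61 of the 122 miRNAs that fell in the knockout rose on induction, 50%. Of the 69 there that rose on induction, the same 61 had fallen in the knockout, 88.4%, a share near the cluster's second one. None of the 55 members was called in the same direction in both comparisons. Outside the cluster only 1 of the 420 tested miRNAs was, lower in both, so this was not particular to the cluster. Across the 55 members the 2 sets of log2 fold changes had a Pearson's r of -0.80 and a Spearman's rho of -0.88, and across the 420 tested miRNAs outside the cluster -0.72 and -0.69, given as descriptions across miRNAs measured in the same libraries. The count of 29 was 14 without the uninduced library A, 16 without the uninduced library B, 17 without the induced library A and 17 without the induced library B. Counts thinned to the smallest library gave 15 of 21.

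**Figure D4:**
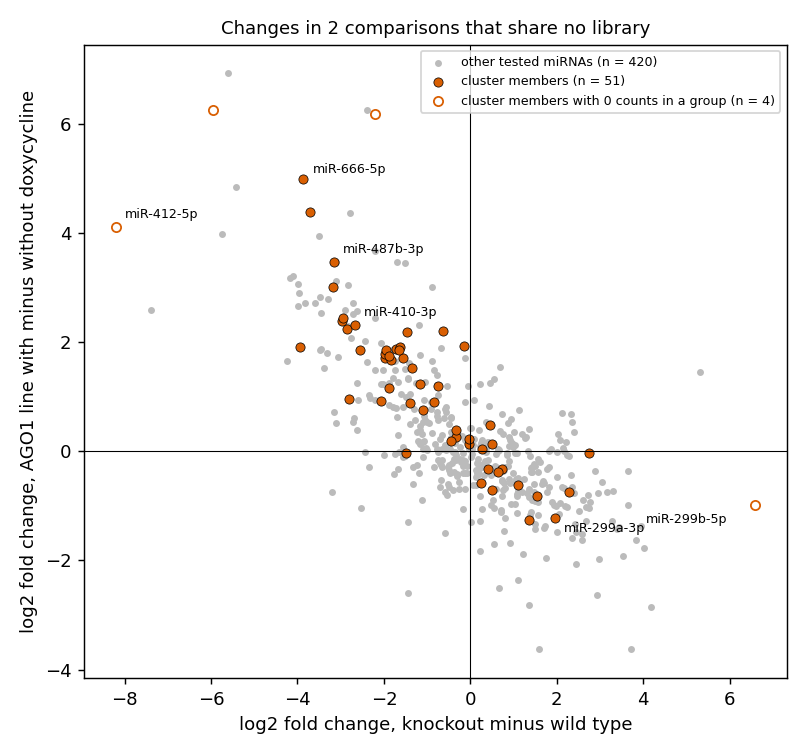
Log2 fold change on induction of AGO1 (y axis) against log2 fold change in the knockout (x axis), both from edgeR, for the 55 tested cluster members (orange) and 420 other miRNAs (grey). Open circles are the 4 members with 0 counts in a group, whose fitted values are no bound; most members lie at upper left, lower in the knockout and higher on induction.

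The induced AGO1 line was last compared with wild type. Of the 55 members 11 were higher and 3 lower, against 19.2% higher and 19.8% lower over all tested miRNAs (38.9% called in all), with a median log2 fold change of 0.26 for the cluster and 0.01 overall. The number called, 14, was 8 without wild type A, 5 without wild type B, 8 without the induced library A, 5 without the induced library B and 22 without either knockout 1 or knockout 2. Calls for miR-134-3p, miR-299a-3p and miR-667-3p held in every fit that left out 1 library. For miR-410-3p the induced level of 18629 and 21573 CPM overlapped the wild type values of 20339 and 17820 CPM (log2 fold change 0.08 ± 0.18, edgeR adjusted p = 0.776). miR-380-3p, at 1627 and 1657 CPM, also lay within the wild type range (log2 fold change -0.14 ± 0.21, edgeR adjusted p = 0.623). miR-1197-3p and miR-487b-3p had log2 fold changes of -0.14 ± 0.43 and -0.35 ± 0.25 without a call. A missed threshold does not show that the levels were equal.

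Several strands were higher in the induced line than in wild type. The share of members called higher, 20%, was near the 19.2% over all tested miRNAs, so such rises were not particular to the cluster. miR-667-3p (chr12:109720006-109720097) had 457 and 361 CPM in wild type and 1101 and 1225 CPM in the induced line (log2 fold change 1.51 ± 0.22, edgeR adjusted p = 0.000704), although it had been lower than wild type in knockout, at 294.4 and 231 CPM. The knockout call of miR-667-3p (log2 fold change -0.62 ± 0.22, edgeR adjusted p = 0.0348) was lost in 6 of the 8 fits that left out 1 library. Its partner miR-667-5p went from 30.8 and 26.1 CPM to 65.0 and 83.7 CPM (log2 fold change 1.38 ± 0.35, edgeR adjusted p = 0.0125). This call was lost without wild type B (adjusted p = 0.0861) or the induced library B (0.0887). Both arms of this hairpin were thus higher in the induced line than in either wild type library, as the rule that named them required. miR-299a-3p, at 649 and 617 CPM, stayed above the wild type values of 271 and 280 CPM (log2 fold change 1.20 ± 0.19, edgeR adjusted p = 0.00118), as did miR-134-3p, at 27.4 and 48.8 CPM against 4.75 and 4.50 CPM (log2 fold change 2.99 ± 0.55, edgeR adjusted p = 0.00250). miR-485-5p had 136.5 and 97.1 CPM in wild type and 248 and 229 CPM in the induced line (log2 fold change 1.03 ± 0.27, edgeR adjusted p = 0.0132). Its call was lost without wild type B (0.108), the induced library A (0.0641) or the induced library B (0.0521).

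The 3 members that remained below wild type were both strands of miR-376a and miR-369-3p. miR-376a-5p had 126.96 and 114 CPM in wild type and 47.9 and 40.9 CPM in the induced line (log2 fold change -1.43 ± 0.33, edgeR adjusted p = 0.00789). The call failed without wild type A (adjusted p = 0.0717), the induced library A (0.0736) or the induced library B (0.123). miR-376a-3p had 99.7 and 98.0 CPM against 55.6 and 34.9 CPM (log2 fold change -1.12 ± 0.31, edgeR adjusted p = 0.0186), and its call was lost without wild type A (0.112), wild type B (0.0671), the induced library A (0.0685) or the induced library B (0.277). miR-369-3p had 740 and 602 CPM against 352 and 267 CPM (log2 fold change -1.11 ± 0.24, edgeR adjusted p = 0.00495). The call failed without wild type A (0.0840) or the induced library B (0.132). The partner strand miR-369-5p, at 614 and 554 CPM, was not called against the wild type values of 524 and 400 CPM (log2 fold change 0.34 ± 0.22, edgeR adjusted p = 0.238).

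The balance of the 2 arms of a hairpin was tested separately, as the 3p to 5p ratio within each library, since both arms come from the same precursor. This test largely shared its spread over all hairpins. Its small p-values therefore do not measure the spread between a hairpin's own libraries, which for some hairpins was wide. In the knockout, 8 of 31 tested cluster hairpins changed their arm ratio, against 23.8% of all 244 tested hairpins, a share near the background. The ratio moved toward the 3p arm in miR-299a, miR-134 and miR-666 and toward the 5p arm in miR-485, miR-410, miR-496a, miR-494 and miR-377. The number called was 4 without knockout 1 and 5 without knockout 2.

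miR-299a gave 73.5 and 70.5% of its counts as 3p in wild type and 86.9 and 92.2% in knockout, a 3.22-fold change of the ratio (log2 change 1.69 ± 0.33, edgeR adjusted p = 5.20e-06). For miR-134 the 3p arm was 0.438 and 0.475% of counts in wild type and 2.40 and 4.58% in knockout (log2 change 2.71 ± 0.60, edgeR adjusted p = 7.63e-05), so the 5p arm stayed dominant in both groups. miR-485 moved the other way, from 34.3 and 32.9% 3p to 13.1 and 6.45% (log2 change -2.01 ± 0.54, edgeR adjusted p = 0.00132). These 3 shifts held in every fit that left out 1 library. The miR-410 shift toward 5p rested on 8 counts of the 5p arm in knockout and 29 in wild type, with the 3p arm at 99.4 to 99.9% in all 8 libraries, and it was lost without knockout 1 (adjusted p = 0.0907) or knockout 2 (0.106). miR-496a had no 5p count in wild type and 4 in knockout, and its call was lost without wild type A (0.0683) or knockout 1 (0.227).

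miR-666 changed its arm balance in both directions. The 3p arm made up 20.7 and 33.4% of its counts in wild type, 48.6 and 70.0% in knockout, 59.0 and 75.8% in the uninduced line and 16.2 and 18.8% in the induced line. The knockout groups differed by a log2 ratio of 1.94 ± 0.46 toward 3p (edgeR adjusted p = 0.000184), a call lost without knockout 2 (adjusted p = 0.0932). On induction the ratio moved back toward 5p by a log2 change of -3.16 ± 0.41 (edgeR adjusted p = 9.56e-12), the single cluster hairpin called in that comparison, where 4.51% of all tested hairpins were. Knockout cells held 27 counts of the 5p and 38 of the 3p arm, so the shift there rests on few reads, whereas the induced libraries held 2132 counts of the 5p arm. No cluster hairpin was called between the uninduced line and the knockout (edgeR; 0.82% of all were), and 2 of the 31 had an unadjusted p under 0.05.

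Between the induced line and wild type 6 of 31 cluster hairpins were called, against 27.5% of all 244 tested, a share no larger than the background. miR-369 had 58.5 and 60.1% of counts on the 3p arm in wild type and 36.5 and 32.5% in the induced line (log2 change -1.47 ± 0.28, edgeR adjusted p = 2.48e-06), and miR-134 stayed shifted toward 3p at 1.62 and 3.39% (log2 change 2.37 ± 0.49, edgeR adjusted p = 1.79e-05). Those calls held in every fit that left out 1 library, whereas those of miR-485, miR-329, miR-666 and miR-299a were each lost in at least 1. The number called was 3 without wild type A, 3 without wild type B and 2 without the induced library A.

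**Figure D5:**
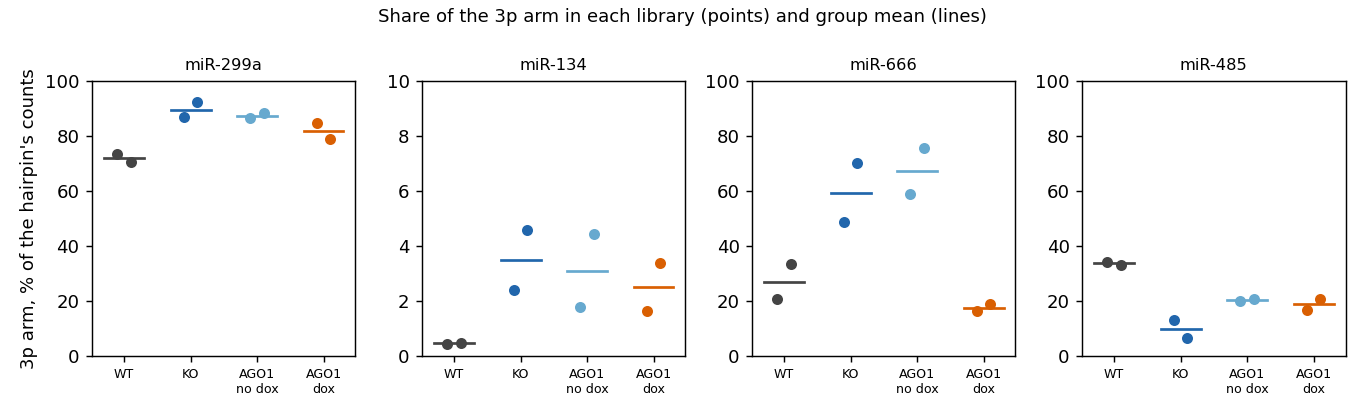
Share of each hairpin's counts that came from its 3p arm, in percent (y axis; 0 to 100, but 0 to 10 for miR-134), in the 4 groups (x axis). Points are libraries and lines are group means (n = 2); miR-666 is at 48.6 to 75.8% in knockout and uninduced cells and at 16.2 to 33.4% in wild type and induced cells, and miR-485 is highest in wild type.

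The other miRNAs of the Dlk1-Dio3 region, 24 of which were tested, were taken as the cluster's neighbours. In the knockout 17 of them fell and 2 rose (median log2 fold change -1.21), on induction 11 rose and 1 fell (median 0.71), and between the uninduced line and the knockout edgeR called none, with 6 at an unadjusted p under 0.05. The share that fell in the knockout was 70.8%, against 56.4% of the cluster and 32.2% of all tested miRNAs. On induction 45.8% rose, against 56.4% of the cluster and 21.1% of all. Against wild type the induced line had 4 higher and 6 lower (median -0.10). These were 16.7% and 25%, against 19.2% and 19.8% of all tested miRNAs. The 11 that rose on induction had all fallen in the knockout, out of 17 that fell, 64.7%. The medians had the same sign as those of the Mirg cluster in all of these comparisons but the last. Between the uninduced line and the knockout they were 0.34 for the neighbours and 0.14 for the cluster. The difference between the 2 lists was not tested.

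The 16 members with too few counts to test included several partner strands of abundant members. miR-541-3p had 1 count in wild type, 2 in knockout, none in the uninduced line and 3 in the induced line, beside the high level of miR-541-5p given above. miR-543-5p was the best covered of the 16, with 8 counts in each wild type library, 2 and 0 in knockout, 3 and 1 in the uninduced line and 19 and 13 in the induced line. Such counts set only broad limits: the knockout to wild type ratio of miR-543-5p was 0.407, with a counting interval of 0.0454 to 1.73.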

How the data were processed

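Small RNA was sequenced from 8 libraries. Per the labels' protocols, total RNA (Trizol, 1 µg) went into an Illumina TruSeq small RNA preparation. The deposited table holds the authors' whole-number counts per mature miRNA, not normalized. Bowtie and the mm10 build come from the submitters' processing notes. Of trimming, mismatches and multiply matching reads nothing is said in the sources used here. Of 2 header lines the first was used, and 1 wild type name in the second differs from it.

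Counts were fitted in edgeR 4.0.16 (R 4.3.3), with TMM factors (0.881 to 1.22), in 1 model of 8 libraries and 4 groups with 4 residual degrees of freedom (common biological coefficient of variation 0.244). Each of 4 comparisons used a 2-sided quasi-likelihood F test with Benjamini-Hochberg adjustment over the 475 miRNAs that passed filterByExpr, which held 99.9% of counts. An adjusted p under 0.05 makes a call. The SE given is approximate, the size of the change over the root of F. Arm ratios were tested in edgeR on the 5p and 3p counts with library as a term, over 244 hairpins, with the spread largely shared over hairpins. Scripts were tested on simulated data. There, 2-fold changes were called in 47 of 96 miRNAs for knockout against wild type and 35 of 97 for uninduced against knockout. On induction 31 of 95 were called, and for induced against wild type 52 of 94. Of 4-fold arm changes in knockout against wild type, 10 of 39 were called. A change that was not called may therefore have been missed.

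Members, lists and tests were chosen with earlier results of these data known. Named with full values are the 6 most abundant members, the 5 largest rises and 5 largest falls per comparison among calls (mean CPM 20 or more, groups that do not overlap), and the 6 hairpins with the smallest adjusted p for the arm ratio; other names were chosen after their values were seen. Where a group had 0 counts, 3 counts over the group set the bound. Floors and 95% exact counting intervals cover counting error only, since these reads carry no molecular identifiers. Positions come from RefSeq (GRCm38.p6) and GENCODE vM21. Alternatives were DESeq2 1.42.0, other scalings and filters, each library left out, a replicate block, only the 2 groups compared and, added after seeing the data, thinned counts and a fit without the 2 shallowest libraries.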

Additional observations from a re-analysis of the deposited data

How the results depend on the processing

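No named result that passed the threshold in the main or the alternative fit changed direction. Sign changes of values that passed in neither fit were not counted. The number of called members ranged from 30 to 37 in knockout against wild type with each library left out (39 with all), 0 to 8 in the uninduced line against knockout, 16 to 37 on induction (33) and 5 to 22 for the induced line against wild type (14). Called arm ratios ranged from 4 to 8, 0 to 0, 1 to 3 and 2 to 6 in the same order, and members lower in the knockout and higher on induction from 14 to 28 (29). In the uninduced line against knockout, DESeq2 called 2 members and edgeR without an abundance filter 2. For the induced line against wild type, edgeR called 23 with only the 2 groups compared, 26 without the 2 shallowest libraries and 22 with a replicate block by letter over 6 libraries. The same 6 libraries without the block gave 20, and on induction both fits gave 37. The A minus B differences correlated at 0.05 (wild type and uninduced), -0.01 (wild type and induced) and 0.20 (uninduced and induced), so the letters were not taken as pairs. Counts thinned to the smallest library left 37 members to test and called 25 in the knockout, 19 on induction, 7 for the induced line against wild type, and 15 lower in the knockout and higher on induction. With each arm required at 5 counts or more, 2 arm ratios were called on induction. Leaving out the 10 most abundant other miRNAs raised the cluster's share of counts to 23.2% in wild type, 22.04% in knockout, 26.9% in the uninduced line and 29.3% in the induced line. This rise of the share follows from the smaller total. The cause of the other shifts was not tested. Over the named members, 1626 values stayed on their side of the threshold, 104 no longer passed and 60 newly passed. Knockout 2, with 163467 counts, limits the precision of low members most: 1 count there is 5.03 CPM.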
